A study of Homo sapiens with 7 samples.

Results

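CREG1 and OSTM1, a lysosomal glycoprotein gene and the gene of a lysosomal ion exchanger subunit, are described here with 7 further lysosomal genes: LAMP1, LAMP2, CTSB, CTSD, PSAP, NPC2 and HEXA. These 9 genes of the 32738 in the count table were found by their symbols. They were chosen for their place in the lysosome, with earlier results of these data known, and CREG1 and OSTM1 were chosen on their measured fold changes. The values of CREG1 and OSTM1 between groups are therefore given as a description with no p-value. Counts of genes that passed a test are given over the other 7, and these counts too are a description. Each of the 9 passed the filter on low counts that left 10212 genes to test.

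The libraries came from HUDEP-2 cells, an immortalised human erythroid progenitor line made from umbilical cord blood. Lentivirus brought in CRISPR interference, in which an inactive Cas9 joined to a repressor is led by a guide RNA to a chosen DNA site and lowers transcription there. The cells were then kept for 72 h in a medium with 3 IU/ml erythropoietin that drives red cell maturation. The non-targeting group had 3 libraries, and guide 1 and guide 2 had 2 libraries each; both guides were aimed at a regulatory element (an enhancer, per the labels) of TMCC2, a membrane protein gene, that lies before its erythroid isoform. The 3 groups shared the line, the infection and the 72 h of differentiation, and the labels give neither an untreated group nor a second line, nor say whether the replicates were separate cultures, so the spread behind the p-values is that between these samples and may be only technical.

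Lysosomes are acidic compartments in which hydrolases break down proteins, lipids and sugar chains delivered by endocytosis and autophagy. Heavily glycosylated membrane proteins line their inner face, a proton pump keeps them acid, and most soluble enzymes are carried there by mannose 6-phosphate receptors. In maturing red cells, mitochondria and other organelles are cleared through autophagy that ends in the lysosome, and the cells finally lose their lysosomes as well. Many lysosomal genes are under the transcription factors TFEB, TFE3 and MITF, which bind short sequences around CACGTG.

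The guides and the promoters of CREG1 and OSTM1 are shown because these genes were chosen on their guide 1 values. LAMP1 is the third of the 3 promoters shown, for its copies of CACGTG. The guides, copied from the labels, 5′ to 3′, were as follows.
guide 1: gtcgtgctgcaggtgaagtg
guide 2: ccatccttcagagtaaacag
non-targeting guide: atcgcgaggacccgttccgcc
In the windows of 300 bases around the RefSeq starts, the best site beside an NGG motif had 11 mismatches to guide 1 at CREG1 and 10 at OSTM1, and 11 mismatches to guide 2 at both genes. Sites elsewhere in the genome were not searched. CREG1 lies on chromosome 1, as TMCC2 does, and its start is 37.7 Mb from the nearest of 6 RefSeq starts of TMCC2 (GRCh38.p14).

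Promoter sequences were taken from RefSeq (GRCh38.p14), in which 5 of the 9 genes matched by symbol: CREG1, OSTM1, LAMP1, CTSD and NPC2. LAMP2, CTSB, PSAP and HEXA had no entry. Each line gives bases upstream of the start, read on the gene's own strand. For CREG1 these are chr1:167553806-167554012 on the minus strand, without 43 bases next to the start that lie in an annotated exon; for OSTM1 they are chr6:108074742-108074991 on the minus strand. Capitals in CREG1 and OSTM1 mark GC boxes (GGGCGG, or CCGCCC on the other strand) and CCAAT boxes (CCAAT, or ATTGG on the other strand). In LAMP1, chr13:113296989-113297238 on the plus strand, capitals mark CACGTG, or TCACGTGA where the longer form is present.
CREG1: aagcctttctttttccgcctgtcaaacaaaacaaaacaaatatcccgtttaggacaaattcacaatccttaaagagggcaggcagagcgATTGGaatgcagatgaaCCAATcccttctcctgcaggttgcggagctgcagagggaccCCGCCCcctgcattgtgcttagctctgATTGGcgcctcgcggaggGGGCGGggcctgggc
OSTM1: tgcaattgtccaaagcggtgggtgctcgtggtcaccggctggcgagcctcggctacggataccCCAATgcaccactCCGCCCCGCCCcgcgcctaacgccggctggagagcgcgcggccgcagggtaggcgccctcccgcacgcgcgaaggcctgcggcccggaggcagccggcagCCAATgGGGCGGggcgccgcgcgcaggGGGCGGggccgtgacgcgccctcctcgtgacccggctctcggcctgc
LAMP1: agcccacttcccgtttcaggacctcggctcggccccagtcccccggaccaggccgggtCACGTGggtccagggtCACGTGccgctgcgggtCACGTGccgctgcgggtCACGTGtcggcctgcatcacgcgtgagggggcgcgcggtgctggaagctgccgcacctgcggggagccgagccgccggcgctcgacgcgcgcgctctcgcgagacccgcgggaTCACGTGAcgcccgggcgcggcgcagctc
The LAMP1 promoter held 5 copies of CACGTG, and it was the 1 promoter of 35116 with as many. One of the 5 was within TCACGTGA, which 0.854% of promoters held; CACGTG itself was in 6.345% of promoters of 250 bases. CTSD held 1 copy, and CREG1, OSTM1 and NPC2 held 0 in their windows. CREG1 had 2 GC boxes and 3 CCAAT boxes, and OSTM1 had 4 and 2, with a pair of the GC boxes sharing a base. GC boxes were in 42.639% and CCAAT boxes in 32.008% of all promoters. The erythroid GATA motifs AGATAA and TGATAA, present on either strand in 9.167% and 6.655% of promoters, were in 0 of the windows of the 5 matched genes. These matches are letters in a window and were not tested as binding sites.

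The libraries held 9780800 to 11350113 counts. They had a red cell profile: 23.6% to 27.1% of the counts fell on 14 red cell genes, among them that of adult beta-globin, HBB, with the lowest share in non-targeting replicate 1. Of 16 markers of monocytes, macrophages and osteoclasts, which are rich in lysosomes, 7 had 0 counts throughout (AIF1, C1QA, C1QB, MRC1, OSCAR, DCSTAMP and CALCR), and the 16 together came to 2.91 to 4.23 CPM in the non-targeting libraries, 2.97 to 3.59 with guide 1 and 2.86 to 5.15 with guide 2 (CPM, the share of all counts scaled to a fixed total). Levels of the targeted gene, TMCC2, are CPM after TMM scaling, which sets the scale of each library. They were 870 ± 58.6 CPM (SD, n = 3) without a targeting guide, 224 ± 7.38 (SD, n = 2) with guide 1 and 245 ± 21.9 (SD, n = 2) with guide 2. Non-targeting replicate 1 stood apart. Its mean correlation with the other libraries over genes was 0.981, against 0.987 to 0.988 for the rest, and its levels leaned to transcripts of low GC content (Spearman's rho of -0.68 across 9424 genes, which are not independent; the other 6 libraries ran from -0.31 to 0.42). Numbers of genes called, and the guide 1 fold changes of CREG1 and OSTM1, are given with and without it. Other fold changes are from all 7 libraries unless stated.

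The 9 genes spanned a wide range of levels in these cells. Levels below are CPM after TMM scaling, and levels of different genes are compared per kilobase of the longest coding transcript. PSAP, the precursor of the saposins that help lipid-degrading hydrolases, averaged 368 CPM per kb over the 7 libraries, and CTSB, a cysteine protease, 265. NPC2, which binds cholesterol in the lysosome, followed at 76.2, and the aspartic protease gene CTSD at 37.7. LAMP2 stood at 25.5, CREG1 at 22.0, OSTM1 at 9.78, HEXA at 3.52 and LAMP1 at 1.76 CPM per kb. The ranges over the 7 libraries overlapped for 1 pair of neighbours in this order, LAMP2 and CREG1, with LAMP2 above in 6 of 7 libraries. With the median length of the coding transcripts in place of the longest, PSAP and CTSB exchanged places and the rest of the order held. Among 9424 genes ranked this way, PSAP was at the 98.3rd percentile, CREG1 at the 80.6th, OSTM1 at the 66.9th and LAMP1 at the 31.0th. LAMP1 and LAMP2 encode sister membrane proteins, and LAMP1 was the lowest of the 9 genes while LAMP2 was in the middle. The 9 genes together took 0.240% to 0.259% of the counts of a library, most of it from CTSB and PSAP (0.195% to 0.220%).

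The spread between libraries was highest for CREG1 and OSTM1, which restates in part the guide 1 difference on which they were chosen. The coefficient of variation over the 7 libraries was 27.5% for OSTM1 and 24.5% for CREG1, against 15.5% for HEXA, 12.0% for CTSD and 6.14% to 9.85% for the other 5. The highest library exceeded the lowest 2.16-fold for OSTM1 and 1.91-fold for CREG1, and 1.22-fold for NPC2, the steadiest.

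**Figure D1:**
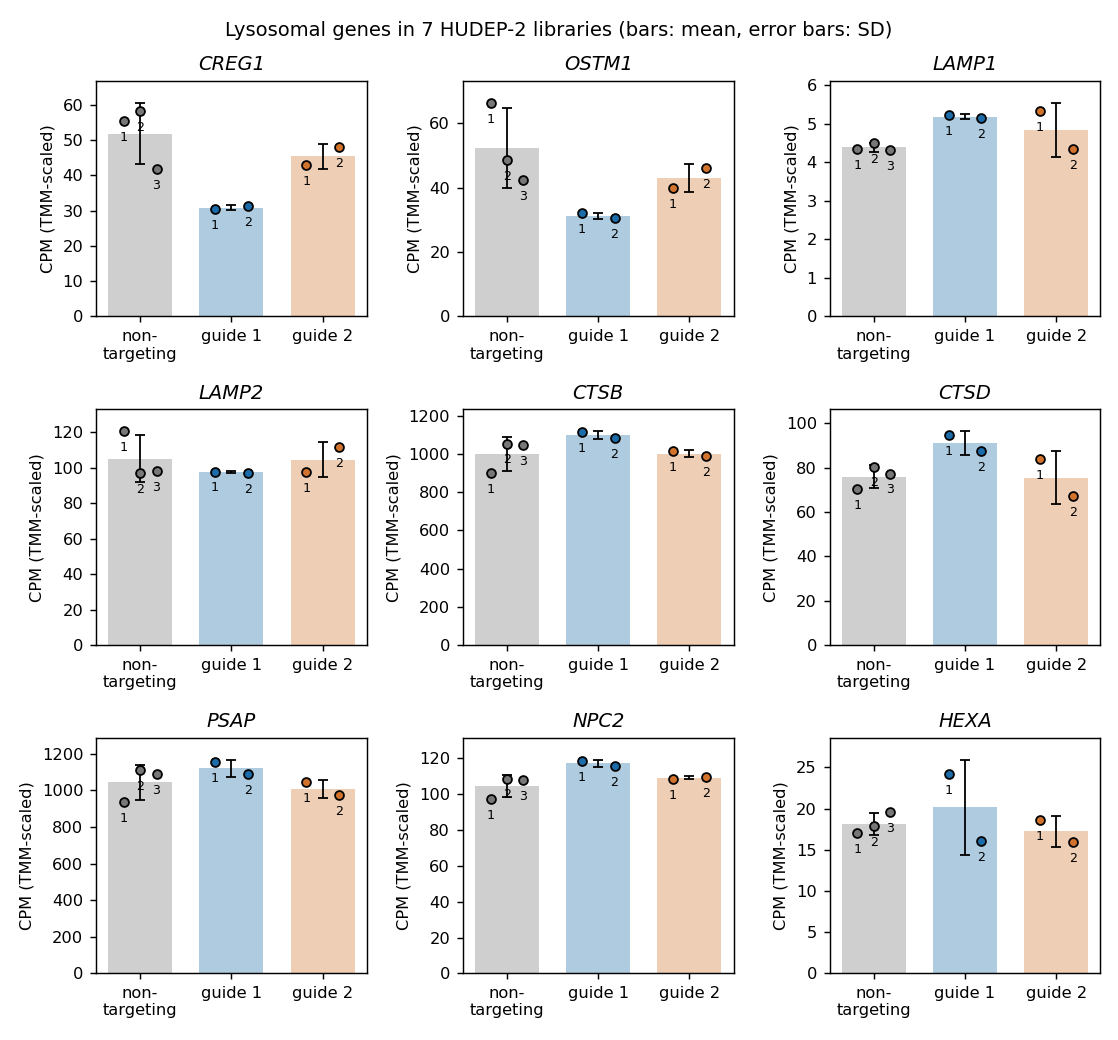
TMM-scaled CPM (vertical axis, from 0) of the 9 lysosomal genes in the non-targeting (grey), guide 1 (blue) and guide 2 (orange) groups; bars are means, error bars are SDs and numbered points are replicates. The guide 1 points of CREG1 (30.4 and 31.3) and OSTM1 (32.0 and 30.6) lie under every other library, while the log2 fold changes of the other 7 genes with guide 1 lie between -0.11 and 0.26.

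The first comparison was guide 1 against the non-targeting guide. CREG1, whose product is a glycoprotein of the lysosome, had 626, 647 and 389 counts in the non-targeting libraries and 309 and 335 with guide 1. These were 55.3, 58.3 and 41.9 CPM against 30.4 and 31.3 CPM. Both guide 1 libraries were below the lowest non-targeting library, replicate 3. The group means were 51.8 ± 8.72 CPM (SD, n = 3) and 30.9 ± 0.61 CPM (SD, n = 2). The log2 fold change was -0.75 (SE 0.16), a change of -40.5%. In bulk RNA, fewer cells of a type and less RNA per cell cannot be told apart.

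OSTM1, the partner subunit that the chloride and proton exchanger CLC-7 needs in the lysosomal membrane, showed a difference of like size. It had 751, 538 and 394 counts without a targeting guide and 325 and 328 with guide 1, or 66.3, 48.5 and 42.4 CPM against 32.0 and 30.6 CPM. The guide 1 libraries again lay below all 3 non-targeting libraries, and non-targeting replicate 1 was the highest of the 7. The means were 52.4 ± 12.4 CPM (SD, n = 3) and 31.3 ± 0.97 CPM (SD, n = 2). The log2 fold change was -0.74 (SE 0.18), a change of -40.3%. OSTM1 has a transcript GC content of 37.7%, lower than that of all but 2.89% of the tested genes, and non-targeting replicate 1 held 1.46 times the mean of the other 2 non-targeting libraries. For CREG1, with a GC content of 48.2%, that ratio was 1.10. Without non-targeting replicate 1 the log2 fold change was -0.54 for OSTM1 and -0.71 for CREG1, given as a description.

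None of the 7 other genes was lower with guide 1 by as much. The membrane protein gene LAMP2 stood at 120.6, 97.1 and 97.9 CPM in the non-targeting libraries and 97.9 and 97.1 CPM with guide 1; the groups overlapped and non-targeting replicate 1 was the high one. Its log2 fold change was -0.11 (95% interval -0.39 to 0.17), and it ran from -0.165 to -0.000346 with a library left out. LAMP1 had 40 to 50 counts in the non-targeting libraries and 53 and 55 with guide 1, or 4.33, 4.50 and 4.31 CPM against 5.22 and 5.14 CPM, a log2 fold change of 0.24 (95% interval -0.25 to 0.73). At these counts a LAMP1 difference of this size was not detectable.

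Among the proteases, CTSD stood at 70.1, 80.4 and 77.2 CPM without a targeting guide and 94.8 and 87.3 CPM with guide 1. Both guide 1 libraries were above the non-targeting ones, with a log2 fold change of 0.26 (SE 0.13, 95% interval -0.02 to 0.54). CTSB stood at 898, 1054 and 1047 CPM against 1112 and 1085 CPM, a log2 fold change of 0.14 (95% interval -0.09 to 0.36). Its groups also did not overlap, and non-targeting replicate 1 was the lowest library. With a library left out the CTSB log2 fold change ran from 0.0634 to 0.176, and over all alternatives from 0.0469 to 0.176.

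Of the genes for lipid and sugar chain breakdown, NPC2 stood at 97.3, 108.6 and 107.8 CPM without and 118.5 and 115.6 CPM with guide 1 (log2 fold change 0.16, 95% interval -0.08 to 0.40). ISCA2, an iron-sulfur cluster gene on the opposite strand, overlaps NPC2 and had 714 to 1099 counts, and the counts cannot assign unstranded reads of the shared part. PSAP stood at 935, 1110 and 1091 CPM against 1154 and 1089 CPM (log2 fold change 0.10, 95% interval -0.13 to 0.33), with overlapping groups. HEXA, the alpha subunit of the hexosaminidase that degrades GM2 ganglioside, stood at 17.0, 17.8 and 19.6 CPM against 24.2 and 16.1 CPM. The guide 1 libraries were the highest and the lowest of these 5, and the log2 fold change of 0.15 (SE 0.18) turned to -0.18 without guide 1 replicate 1.

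None of these 7 genes passed the test for guide 1, with adjusted p between 0.877 and 0.912 (quasi-likelihood test of edgeR, Benjamini-Hochberg adjustment over all genes). Among all genes tested, 0.0294% were called. Before adjustment 488 of 10212 genes had p under 0.05, and 0 of the 7. By DESeq2, 0 of the 7 were called. Groups did not overlap for 6 of the 9 genes, against 21.6% of all tested genes: 4 were higher with guide 1 (CTSB, CTSD, LAMP1 and NPC2), against 11.3% of all genes, and 2 were lower (CREG1 and OSTM1), against 10.3%. Since CREG1 and OSTM1 were chosen on this contrast, the counts of 6 and 2 are a description only. The count of 4 is a description too. Those 4 genes have a transcript GC content of 51.2% to 63.4%, and the guide 1 libraries leaned to high GC content (rho of 0.41 and 0.27). The part of GC content in the count was not tested. Without non-targeting replicate 1, 59 genes were called (0.584%), and 0 of the 7. With a GC content correction the log2 fold changes of CREG1 and OSTM1 were -0.74 and -0.53.

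**Figure D2:**
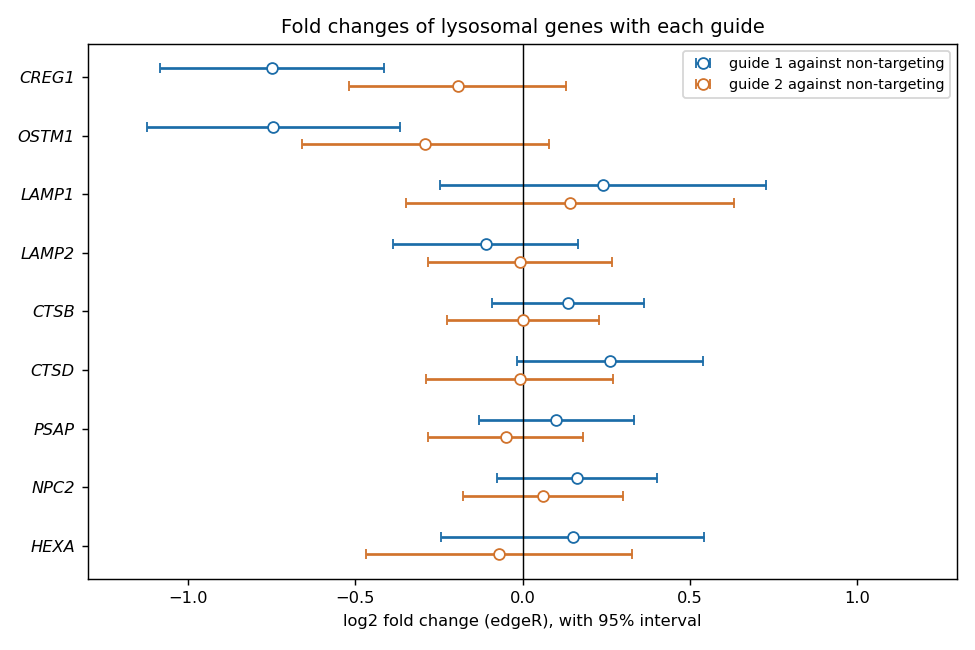
Log2 fold changes (horizontal axis) of the 9 genes against non-targeting with guide 1 (blue) and guide 2 (orange), with 95% intervals from the edgeR fit. CREG1 and OSTM1 lie at -0.75 and -0.74 with guide 1, the contrast on which they were chosen. With guide 2, set against the same non-targeting libraries, they lie at -0.19 and -0.29. The intervals of CREG1 and OSTM1 are therefore drawn as a description and not as a test with either guide. The intervals of the other 7 genes include 0 with both guides.

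With guide 2, which is aimed at the same region and left TMCC2 at a level near that of guide 1, CREG1 and OSTM1 stayed nearer to the non-targeting libraries. CREG1 had 458 and 508 counts, or 42.8 and 48.0 CPM, both within the non-targeting range. The mean was 45.4 ± 3.62 CPM (SD, n = 2) and the log2 fold change -0.19 (SE 0.15, 95% interval -0.52 to 0.13). OSTM1 had 426 and 487 counts, or 39.8 and 46.0 CPM, with replicate 1 below all non-targeting libraries and replicate 2 among them. Its mean was 42.9 ± 4.34 CPM (SD, n = 2) and its log2 fold change -0.29 (SE 0.17, 95% interval -0.66 to 0.08). Without non-targeting replicate 1 the OSTM1 value was -0.08, and without guide 2 replicate 1 it was -0.19. The CREG1 value was -0.10 without non-targeting replicate 2, -0.11 without guide 2 replicate 1 and -0.32 without non-targeting replicate 3.

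The other 7 genes ranged from -0.07 for HEXA to 0.14 for LAMP1 with guide 2. LAMP2 stood at 97.6 and 111.7 CPM, CTSB at 1015 and 988, CTSD at 83.9 and 67.1 and PSAP at 1045 and 974 CPM. NPC2 stood at 108.6 and 109.7 CPM, HEXA at 18.6 and 16.0 and LAMP1 at 5.33 and 4.34 CPM. All 9 genes overlapped the non-targeting group, against 15% of tested genes whose groups did not. Of the 7, 0 were called in a comparison that called 0.00979% of genes (edgeR). Before adjustment 0 of the 7 and 281 of all 10212 genes had p under 0.05, and DESeq2 called 0 of the 7.

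The guides were also set against each other, a contrast that shares the guide 1 libraries with the values on which CREG1 and OSTM1 were chosen. CREG1 was higher with guide 2 by 0.56 on the log2 scale (SE 0.17), 45.4 against 30.9 CPM. OSTM1 was higher by 0.45 (SE 0.19), 42.9 against 31.3 CPM. Under the alternatives CREG1 ran from 0.48 to 0.64 and OSTM1 from 0.29 to 0.56. The guide libraries also differed in the GC content they favoured (rho of 0.41 and 0.27 with guide 1, 0.08 and -0.31 with guide 2). The part of GC content in this contrast was not tested beyond the GC content correction, which is among the alternatives. CTSD (-0.27, SE 0.14), HEXA (-0.22, SE 0.20), PSAP (-0.15, SE 0.12) and CTSB (-0.13, SE 0.12) were lower with guide 2 and did not pass the test (adjusted p = 0.983, edgeR). The edgeR test called 0 of 10212 genes here (0%), 292 had p under 0.05 before adjustment, 0 of the 7 among them, and 2 genes but 0 of the 7 were called by DESeq2. With 2 libraries a side, 44.1% of all genes did not overlap, so the 6 of 9 seen here come against a high background. Of the 6, 2 were higher with guide 2 (CREG1 and OSTM1, beside 21.9% of all genes). The 4 lower were CTSB, CTSD, PSAP and NPC2 (beside 22.2% of all genes), while the groups of HEXA overlapped. Without non-targeting replicate 1, which enters only through the shared spread and scaling, 32 genes were called (0.317%), and 19 when the 4 guide libraries alone were fitted, with 0 of the 7 in either. A difference in guide strength at TMCC2 was not called (log2 difference of 0.13, 95% interval -0.13 to 0.39).

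For the mean of both guides, CREG1 stood at 38.1 ± 8.65 CPM (SD, n = 4) against 51.8 CPM, or -0.47 on the log2 scale (SE 0.13). OSTM1 stood at 37.1 ± 7.16 CPM (SD, n = 4) against 52.4 CPM, or -0.52 on the log2 scale (SE 0.14), and -0.31 without non-targeting replicate 1. The other 7 genes ranged from -0.06 for LAMP2 to 0.19 for LAMP1 (adjusted p = 0.998, edgeR). Of the 7, 0 were called where 0.0196% of all genes were. Before adjustment 0 of the 7 and 428 of all 10212 genes had p under 0.05, and 0 of the 7 were called by DESeq2. In all 9 genes the 4 guide libraries overlapped the non-targeting ones, against 5.4% of tested genes whose groups did not overlap. Without non-targeting replicate 1, 53 genes were called (0.524%), and 0 of the 7. The comparisons with the non-targeting guide share its 3 libraries, so agreement between them is not separate evidence.

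Partners of the 9 genes were looked at next. CLCN7, the exchanger that OSTM1 joins, was at 6.20 ± 0.98 CPM (SD, n = 3) with the non-targeting guide, 4.44 ± 1.12 (SD, n = 2) with guide 1 and 6.91 ± 1.44 (SD, n = 2) with guide 2. Its log2 fold change was -0.48 (SE 0.26) with guide 1, with overlapping groups, and 0.16 (SE 0.24) with guide 2; neither passed. NPC1, the membrane protein that takes cholesterol from NPC2, stood at 27.6 ± 3.55, 32.0 ± 0.12 and 28.4 ± 2.20 CPM in the same order, with a log2 fold change of 0.21 (SE 0.15) with guide 1. The enzyme-sorting receptors M6PR and IGF2R differed by 0.11 and 0.04 with guide 1 and by 0.10 and 0.08 with guide 2. None of these partners was called in any of the 4 comparisons by edgeR.

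Other proteases and membrane proteins of the lysosome followed. CTSL, a cysteine protease, stood at 395 ± 22.9 CPM (SD, n = 3) and at 422 ± 17.8 CPM (SD, n = 2) with guide 1. CTSA, a protective carboxypeptidase, stood at 85.1 ± 12.0 CPM (SD, n = 3) and 103 ± 0.15 CPM (SD, n = 2), a difference of 0.27 on the log2 scale (SE 0.13) that did not pass. The membrane protein gene CD63 differed by 0.18, the calcium channel gene MCOLN1 by 0.08 and the membrane receptor gene SCARB2 by -0.08. Of the factors that switch on lysosomal genes, TFE3 stood at 27.1 ± 3.80 CPM (SD, n = 3) and MITF at 3.60 ± 1.09 CPM (SD, n = 3), and they differed by -0.03 and -0.10 with guide 1. TFEB had at most 1 count in a library and 2 counts in all, and CREG2, the relative of CREG1, had 0 counts in the 7 libraries.

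The wider set of lysosomal genes was summarised in 6 lists of 203 genes, without the 9, of which 177 were tested. These lists were also drawn up with earlier results of these data known, so the counts are a description. In each of the 4 comparisons edgeR called 0 of the 177. Unadjusted p under 0.05 was reached by 6 of them with guide 1, 1 with guide 2, 2 for both guides and 2 between guides, beside 488, 281, 428 and 292 of all 10212 genes in the same order. DESeq2 called 0 of the 177 in each. With guide 1 the median log2 fold change of the 177 was 0.02, beside -0.01 over all tested genes, with 100 genes positive and 77 negative. The 9 genes had a median of 0.14 in that contrast, with 6 positive and 3 negative. With guide 2 the median of the 177 was -0.01, beside -0.02 over all tested genes. For both guides it was 0.00, beside -0.01. The values of the 177 with guide 1 ran from -0.69 to 0.86.

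By role, 48 acid hydrolases and activators were tested, and 30 were positive and 18 negative with guide 1, with a median of 0.02. Of these, LIPA, the lysosomal acid lipase, stood at 24.5 ± 6.23 CPM (SD, n = 3) and 17.8 ± 0.76 CPM (SD, n = 2), or -0.47 on the log2 scale (SE 0.20), and DNASE2, the nuclease that degrades DNA in lysosomes, at 40.4 ± 0.69 and 49.2 ± 1.61 CPM, a log2 fold change of 0.29 (SE 0.13). In both genes the guide 1 libraries did not overlap the non-targeting ones, and neither passed (adjusted p = 0.877, edgeR). Of 34 membrane proteins and transporters 21 were positive, with a median of 0.03. ABCD4, a cobalamin transporter, differed by 0.29 (SE 0.23).

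The proton pump had 17 tested V-ATPase subunits, 9 positive and 8 negative with guide 1, with a median of 0.06. ATP6V1D, a subunit of the central stalk, stood at 125 ± 16.1 CPM (SD, n = 3) and 96.8 ± 3.70 CPM (SD, n = 2), or -0.37 on the log2 scale (SE 0.14). TCIRG1, the a3 subunit of the membrane sector, stood at 6.04 ± 1.04 and 8.50 ± 0.52 CPM, a log2 fold change of 0.49 (SE 0.21). Neither passed (adjusted p = 0.877, edgeR). Among 29 genes that sort enzymes to lysosomes, 13 were positive and 16 negative, with a median of -0.02, AP3S1 at -0.49 (SE 0.27) and CLTA at -0.16 (SE 0.12). Among 25 genes of fusion and positioning the median was 0.02, with VAC14 at 0.28 (SE 0.20) and STX7 at -0.24 (SE 0.15). Among 24 genes of nutrient signalling and transcription control it was 0.03, with TSC1 at 0.11 (SE 0.12) and FNIP2 at 0.25 (SE 0.22). TSC1, a brake on mTORC1, was 0.31 (SE 0.12) with guide 2, and it was called there together with MLST8 when non-targeting replicate 1 was left out, in a fit that called 128 genes (1.27%).

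**Figure D3:**
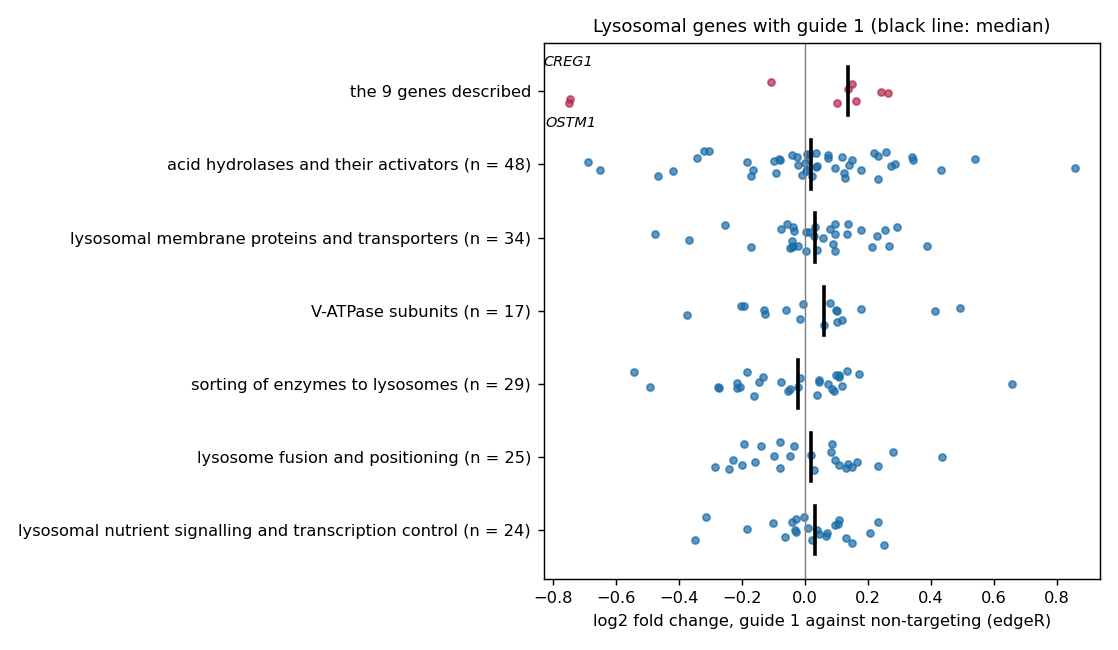
Log2 fold changes with guide 1 against non-targeting (horizontal axis) for the 9 genes described (red points) and the tested genes of 6 lysosomal lists (blue points, vertical scatter for display); black lines are medians. CREG1 and OSTM1, chosen on this contrast, stand at -0.75 and -0.74, and the list medians lie between -0.02 and 0.06.

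CREG1 and OSTM1 varied together over the 7 libraries, with Pearson's r of 0.90 and Spearman's rho of 0.89 of their log2 CPM, given as a description because both were chosen on the same libraries. Among 6513 candidate genes, those most like CREG1 over the 7 libraries were EFCAB14 (r = 0.98), DNAAF2 (r = 0.98), IFIH1 (r = 0.97), ABCG2 (r = 0.96) and DNAJA4 (r = 0.96). Those most like OSTM1 were JAK2 (r = 0.99), ZNF800 (r = 0.99), BTG1 (r = 0.99), PPP2CA (r = 0.99) and PRKRIR (r = 0.98). The 7 libraries are the same for every gene, and they differ in the GC content they favour. Of the other 7 genes, non-targeting replicate 1 was the lowest library for CTSB, PSAP and NPC2 and the highest for LAMP2, and guide 1 replicate 1 was the highest for CTSB, CTSD, PSAP, NPC2 and HEXA. Guide 2 replicate 2 was the lowest for CTSD and HEXA, and non-targeting replicate 2 for LAMP2. LAMP1 was lowest in non-targeting replicate 3 and highest in guide 2 replicate 1. Against the mean of the other 2 non-targeting libraries, replicate 1 held 1.24 times as much LAMP2, with a transcript GC content of 40.4%, and 0.85 to 0.98 times as much of the 6 genes with a GC content of 51.2% to 63.4%. The part of GC content in these differences was not tested beyond the correction given with the fold changes.

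**Figure D4:**
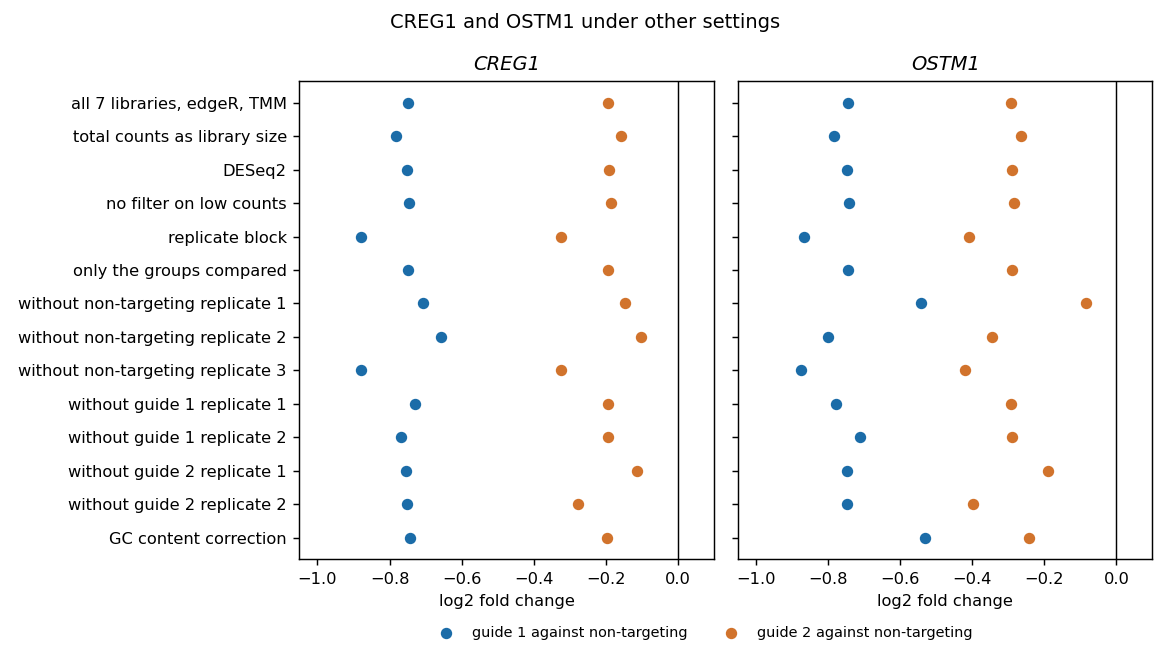
Log2 fold changes of CREG1 (left) and OSTM1 (right) against non-targeting with guide 1 (blue) and guide 2 (orange) for the fit of all 7 libraries described in the text (top line) and 13 other settings. With guide 1 CREG1 runs from -0.88 to -0.66 and OSTM1 from -0.87 to -0.53. All points are below 0, which is a description only, because both genes were chosen on these libraries.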

How the data were processed

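RNA of 7 HUDEP-2 libraries was made with Smart-seq2 and a Nextera-based kit, per the labels' protocols. This chemistry does not mark strand and has no molecular identifiers, so antisense reads cannot be separated and PCR copies count as reads. The authors deposited a table of unscaled read counts by gene symbol, 1 column per library, per the file header. STAR and the build GRCh37 (hg19) are named in the submitters' processing notes; the sources used here give no versions, counting program, annotation or handling of reads with several alignments.

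The test was edgeR's quasi-likelihood F-test (edgeR 4.0.16, limma 3.58.1, R 4.3.3) on all 7 libraries with group as the term and 4 residual degrees of freedom. A filter (filterByExpr, minimum count 10) left 10212 of 32738 genes, and TMM set the scale of each library. Tests were two-sided, Benjamini-Hochberg adjusted over all genes, and called at an adjusted p under 0.05. Standard errors and 95% intervals come from that fit. Alternatives were total counts as library size, DESeq2 1.42.0, no filter on low counts, a replicate block, only the groups compared, each library left out, and a GC content correction chosen after seeing the data.

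Transcript length and GC content came from GENCODE v29 by symbol (92.3% of tested genes had a value), and promoters from RefSeq. The genes named were the 9, TMCC2, partners and regulators fixed by name, the 2 genes of smallest unadjusted p for both guides in each list with a mean of at least 5 CPM, called list genes, and the 5 genes most correlated with CREG1 and OSTM1. MLST8 was named after its value was seen, and 3 genes that the rule takes are not reported here. The members and lists were chosen with earlier results of these data known.

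Counts were simulated for 10212 genes with 200 changed. A log2 change of 1 was recovered in 79.8% of cases for both guides, 70.7% for guide 1 and 69.7% for guide 2. A change of 0.5 was recovered in 28.6%, 11.2% and 16.3%. In the same order, 11 of 118, 3 of 84 and 8 of 93 calls were of unchanged genes. The simulated libraries had no GC shift like that of non-targeting replicate 1, so these shares may not hold for the measured ones.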

Additional observations from a re-analysis of the deposited data

How the results depend on the processing

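Under the alternatives 459 fold changes of the 9 genes were recomputed. Of these, 422 kept their direction and their side of the threshold, 27 changed direction, 10 newly passed the threshold and 0 lost it. Those that passed were all of CREG1 or OSTM1. Because both genes were chosen on these libraries, these calls support nothing and are not listed by setting. The log2 fold changes of CREG1 and OSTM1 kept their direction under each alternative run. That choice largely fixes this in advance, so it is no support either.

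The number of genes called depended on the setting. For both guides it was 2, and 4 with DESeq2, 8 with no filter on low counts, 8 with the GC content correction, 1 with the replicate block and 1 to 53 with a library left out. For guide 1 it was 3, and 6 with DESeq2, 19 with no filter, 18 with the GC content correction and 1 to 59 with a library left out. For guide 2 it was 1, and 3, 4 and 3 under the same settings and 1 to 128 with a library left out. For guide 2 against guide 1 it was 0, and 2 with DESeq2, 2 with no filter, 2 with the GC content correction, 1 with the replicate block, 19 with only the groups compared and 0 to 32 with a library left out. The highest counts came each time without non-targeting replicate 1.

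Genes other than CREG1 and OSTM1 among the 9 were not called with total counts as library size, DESeq2 or no filter. The same held with the replicate block, the GC content correction, only the groups compared and a non-targeting library left out. Of the lysosomal lists, TSC1 and MLST8 were called for guide 2 without non-targeting replicate 1, when 1.27% of all tested genes were called.

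The changes of direction were in small log2 fold changes. With the GC content correction they were LAMP2 for both guides (0.0243), PSAP for both guides (-0.00846), LAMP2 with guide 1 (0.0375), LAMP2 and CTSD with guide 2 (0.0111 and 0.00646) and LAMP2 between guides (-0.0264). With total counts as library size they were LAMP2 and CTSD with guide 2 (0.0248 and 0.0334). With a library left out, for both guides LAMP2 ran from -0.114 to 0.0516, CTSB from -0.00232 to 0.109, PSAP from -0.0484 to 0.0711 and HEXA from -0.12 to 0.17. With guide 1 HEXA ran from -0.18 to 0.42. With guide 2 LAMP1 ran from -0.0119 to 0.281, LAMP2 from -0.109 to 0.104, CTSB from -0.0681 to 0.0419, CTSD from -0.177 to 0.142 and HEXA from -0.184 to 0.0353. Between guides LAMP1 ran from -0.248 to 0.0445 and HEXA from -0.49 to 0.10. The cause was not tested.

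The replicate numbers were not shown to pair the samples. Deviations of same-numbered libraries from their group means correlated between -0.19 and 0.03. In groups of 2 libraries the deviations mirror each other, so these values can neither show nor exclude pairing. The replicate block changed no call among the 9 genes. Where 1 library was left of a group, it was assumed to vary like the others. Low depth limits LAMP1, and intervals cover the spread between these libraries only.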
